A study of Caenorhabditis elegans with 15 samples.

Results

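Gene expression in Caenorhabditis elegans embryos incubated for 3 h after collection was compared with that in embryos incubated for 2 h. The comparison used the 6 arrays titled 2A to 2C and 3A to 3C, of 15 in the series, and every probe set other than the array maker's own controls, 22548 in all. They represented 17138 named genes, each read from its brightest probe set. All embryos came from wild-type N2 hermaphrodites injected into the body cavity with double-stranded RNA for 3 genes, mex-1, lit-1 and pal-1. Embryos were dissected out as they reached 2 to 4 cells and kept in a wet chamber at room temperature, until total RNA extraction at 0, 1, 2, 3 or 4 h, with 3 independent samples at each time. Every time therefore carried the same triple knockdown, and embryos without it were not analysed here. Separate mothers or days are not stated, and the p-values cover only sample-to-sample spread, which may be technical.

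The MS blastomere is the founder of much of the mesoderm, including the posterior pharynx and many body wall muscles, and its fate is set by short-lived zygotic regulators that act in sequence. MEX-1 keeps determinants of the posterior lineages out of the anterior blastomeres, the kinase LIT-1 is required for the endodermal fate of the sister blastomere E, and the Caudal-type homeodomain protein PAL-1 specifies the C and D lineages. Loss of the 3 together is known to favour MS-like fates. How far these embryos followed that course is not recorded in the labels. RNA came from whole embryos, so a fall may reflect fewer cells of a type or less RNA per cell, which cannot be told apart in such samples.

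Values were the authors' RMA expression values on the log2 scale, where 1 unit is a 2-fold difference. A probe set was called when its Benjamini-Hochberg adjusted p from limma, fitted across all 15 arrays, was under 0.05. Values were judged against a background mark of 3.22, the highest value of 15 bacterial control probe sets. Arrays of the same time correlated at 0.967 to 0.985 at 2 h and 0.967 to 0.977 at 3 h, and arrays of different times at 0.933 to 0.953. The injected genes did not pass the test between the times. The mex-1 values were 6.55, 7.04 and 6.20 at 2 h and 6.82, 6.72 and 6.65 at 3 h, those of lit-1 were 4.38, 4.43 and 4.197 and 4.04, 4.55 and 4.36, and those of pal-1 were 8.59, 9.19 and 8.11 and 7.53, 6.59 and 7.82. These 3 readings do not check the knockdown, since every array carried it and injected RNA may itself be labelled. The titles and time tags of 2 arrays disagree: 1 h B is tagged as 2 h and 1 h C as 3 h. Both were closer to array 1 h A than to the arrays of their tag. Array 1 h C correlated at 0.981 with 1 h A and at 0.871 to 0.882 with the 3 h arrays. Array 1 h B correlated at 0.914 with 1 h A and at 0.850 to 0.878 with the 2 h arrays. The titles were followed, which gives 3 arrays at each time as the study's design states; with the tags followed in their place, 1 probe set was called higher and 7 lower. Array 1 h B also stood apart, with a median yolk gene value of 8.58 against 2.92 to 3.61 on the arrays of 2 h and 3 h. Without it the comparison gave 221 higher and 519 lower probe sets. The 31 genes listed as markers of the adult mother and of sperm had no call, and their median on each array of 2 h and 3 h lay between 3.55 and 3.98.

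More transcripts were called lower than higher in the third hour. Of the 22548 probe sets, 186 (0.825%) were called higher at 3 h and 429 (1.9%) lower. By gene, 147 (0.858%) were higher and 359 (2.09%) lower. In each of these 506 genes the 3 arrays of one time lay beyond the 3 of the other, which was true of 9.02% of all genes for rises and 7.29% for falls. At an unadjusted p under 0.05 from limma the directions were closer, with 867 genes (5.06%) higher and 942 (5.5%) lower. The excess of falls thus describes the called genes and not transcripts in general. The called falls were also larger, with 190 genes at least 4-fold lower against 48 at least 4-fold higher. The split depended on the scaling between arrays. Rises were 30.2% of the called probe sets as deposited, 42.1% after centring each array on its ribosomal protein genes and 7.91% after centring on the spiked hybridisation controls. The median difference over all probe sets, 0.04 as deposited, became 0.17 and -0.44 under these 2 scalings. Without array 2 h C, 112 probe sets were higher and 342 lower.

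**Figure D1:**
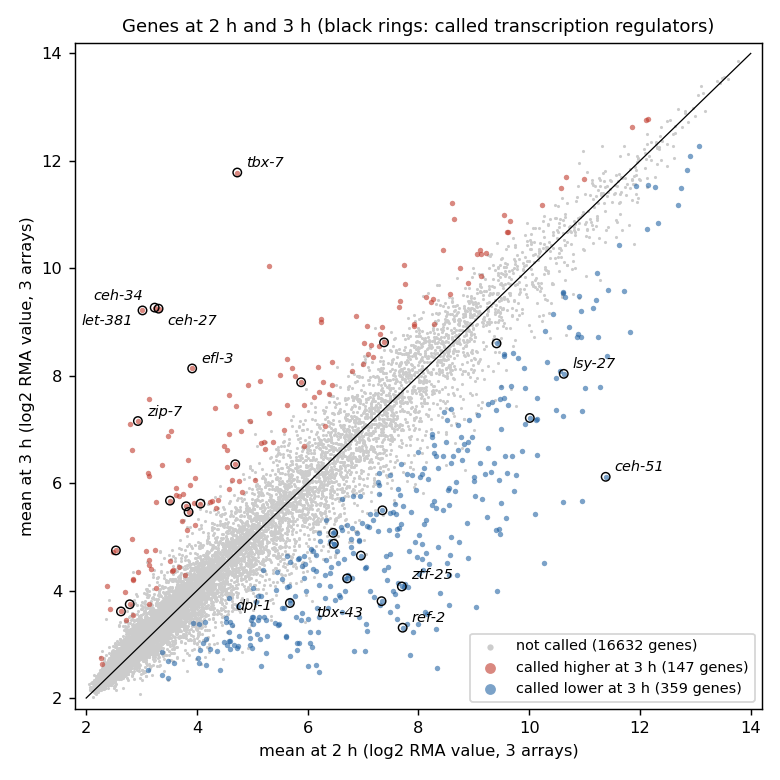
Mean log2 RMA value of each gene at 2 h (horizontal axis) and 3 h (vertical axis), 3 arrays each, with called genes in colour, called transcription regulators ringed and the line of equal values drawn. tbx-7, let-381, ceh-34 and ceh-27 lie far above the line and ceh-51 far below it, and the 359 falling genes outnumber the 147 rising ones.

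Transcription regulators were represented by 626 measured genes, of which 16 (2.56%) rose and 13 (2.08%) fell. The share that rose stood above the 0.858% of all genes, whereas the share that fell lay close to the 2.09% of all genes. The greatest rise of any gene was that of tbx-7, a T-box factor. Its values were 5.19, 3.78 and 5.21 at 2 h and 11.82, 11.69 and 11.84 at 3 h. The groups were widely separated, with a log2 difference of 7.06 ± 0.33 (SE), or 133-fold (adjusted p = 1.00e-07, limma). tbx-7 had stood at 3.72 at 0 h and 6.41 at 1 h before that, and its 4 h mean was 11.31. let-381, a FoxF-type forkhead factor known from non-muscle mesoderm of the postembryonic M lineage, was at background on every 2 h array. It read 2.93, 2.97 and 3.15 at 2 h and 8.96, 8.87 and 9.82 at 3 h, a difference of 6.20 ± 0.22 (73.5-fold, adjusted p = 2.08e-08). A second let-381 probe set rose by 2.96.

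A pair of homeobox genes on chromosome V followed closely. ceh-34, a sine oculis-class factor active in non-muscle mesoderm and pharyngeal neurons, read 3.83, 2.65 and 3.23 at 2 h and 9.14, 8.74 and 9.92 at 3 h. ceh-27, of the NK-2 class, read 3.89, 2.86 and 3.17 at 2 h and 9.50, 9.05 and 9.19 at 3 h. No array of 3 h came near an array of 2 h for either gene. The differences were 6.03 ± 0.39 for ceh-34 (65.4-fold, adjusted p = 1.41e-06) and 5.94 ± 0.35 for ceh-27 (61.5-fold, adjusted p = 7.45e-07). In the fourth hour ceh-27 fell to 7.44 (adjusted p = 0.0255) and ceh-34 stood at 8.93 (adjusted p = 0.977), and their changes were not tested against each other. tbx-2, a T-box factor needed for anterior pharyngeal muscle, rose from a mean of 3.80 ± 0.07 (SD, n = 3) to 5.57 ± 0.74, by 1.77 ± 0.31 (adjusted p = 0.00682), although its other probe set differed by 0.68 and was not called. ceh-32, a sine oculis-class factor of the head, read 3.52, 4.98 and 3.69 at 2 h and 5.64, 5.71 and 5.51 at 3 h. Its 2 h B value was the highest of its group, and the call (difference 1.55 ± 0.34, adjusted p = 0.0255) was kept only without that array among the 6 fits that left out an array of 2 h or 3 h.

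These 6 genes were the rises among 32 measured mesoderm and pharynx regulators (18.8%, against 0.858% of all genes), and 3 members fell. This list and those below were chosen with earlier results of these data known, so such shares are not independent evidence. The list's median difference was 0.11, against 0.04 over all genes, and 11 members were at or below background at both times. The regulators that open the MS programme were among the latter: tbx-35, the T-box factor upstream of ceh-51, read 2.72, 2.37 and 2.48 at 2 h and 2.59, 2.48 and 2.71 at 3 h, and the GATA-type factor med-1 read 2.81, 2.53 and 2.70 and 2.93, 3.07 and 2.76. Several later regulators of muscle and pharynx did not pass the test in this hour. The forkhead factor pha-4, which specifies pharyngeal organ identity, read 5.70, 7.68 and 6.98 at 2 h and 6.22, 6.04 and 6.37 at 3 h. The bHLH factor hnd-1 read 6.46, 5.38 and 6.45 and 6.70, 5.92 and 6.74, and was called higher in the next hour, at a mean of 9.12 (adjusted p = 8.78e-04). The NK-2 gene ceh-22, of pharyngeal muscle, was at background on all 6 arrays and likewise rose in the fourth hour, from 3.12 to 7.14 (adjusted p = 8.93e-04). hlh-1, the MyoD of this animal, had means of 2.73 and 2.71. The sine oculis-class gene unc-39 read 3.82, 4.39 and 5.03 at 2 h and 6.11, 5.72 and 6.01 at 3 h without overlap, with a difference of 1.53 ± 0.45 that missed the threshold (adjusted p = 0.124). eya-1, whose product partners sine oculis-class factors, was already at 8.29 ± 0.45 at 2 h and stood at 8.66 ± 0.64 at 3 h (adjusted p = 0.83).

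**Figure D2:**
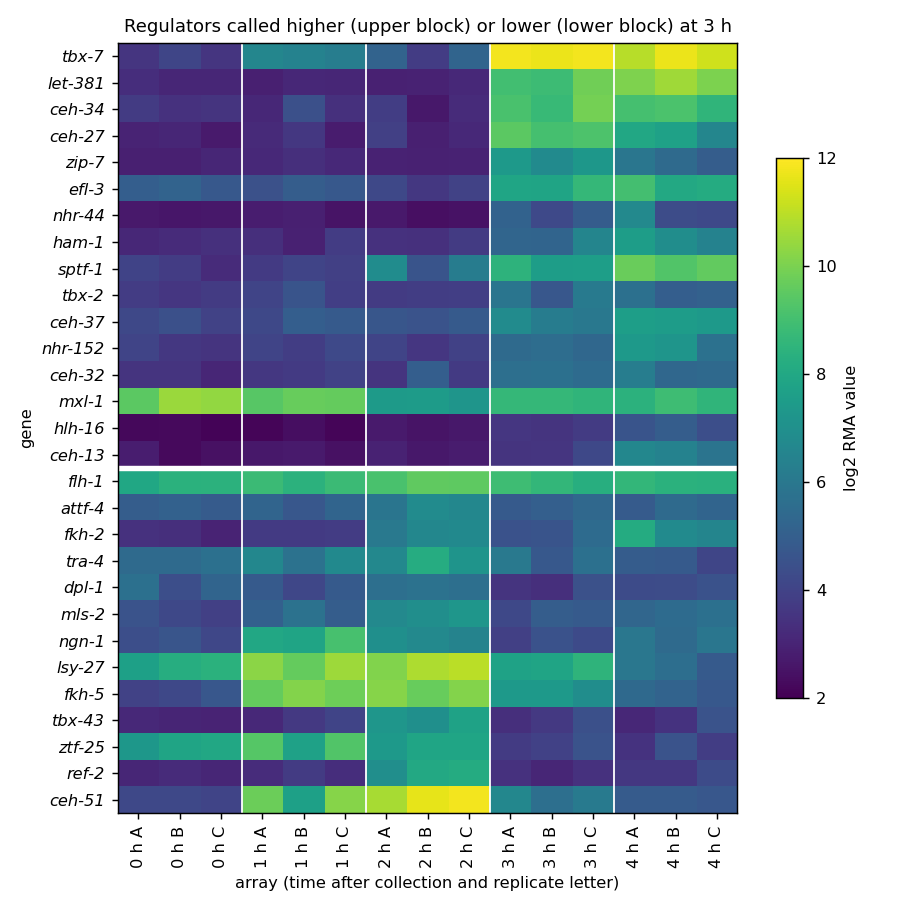
Log2 RMA value of the 16 transcription regulators called higher (upper block) and the 13 called lower (lower block) at 3 h, on all 15 arrays in order of time. let-381, ceh-34, ceh-27 and zip-7 are dark up to 2 h and bright from 3 h, and ref-2 and tbx-43 are bright on the 2 h arrays alone.

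The other 10 rising regulators are known from several lineages or have no settled one. The cells in which they rose here cannot be told from whole embryos. zip-7, a bZIP factor, was flat at 2.94, 2.92 and 2.94 at 2 h and read 7.38, 6.79 and 7.30 at 3 h, a rise of 4.22 ± 0.21 (adjusted p = 1.54e-07). It was back at 5.44 by 4 h. efl-3, an atypical E2F factor, read 4.17, 3.61 and 3.97 at 2 h and 7.88, 7.85 and 8.67 at 3 h, higher by 4.22 ± 0.28 (adjusted p = 1.64e-06), and stayed at 8.40. ham-1, a winged-helix protein that acts in asymmetric neuroblast divisions, rose by 2.16 ± 0.35 (adjusted p = 0.00369) and the Otx-type homeobox gene ceh-37 by 1.66 ± 0.24 (adjusted p = 0.00123). A second ceh-37 probe set differed by 1.18 and was not called. mxl-1, a Max-like bHLH factor, was the member that returned rather than appeared: it stood at 10.11 at 0 h, had dropped to 7.38 at 2 h and was at 8.62 at 3 h, higher by 1.24 ± 0.23 (adjusted p = 0.00808). hlh-16, a bHLH factor of neurons, and ceh-13, the labial-type Hox gene, rose by about 1 unit from below the background mark, to 3.61 ± 0.11 and 3.75 ± 0.36, and both were called higher again at 4 h, at 4.65 and 6.29. The nuclear hormone receptor genes nhr-44 and nhr-152 rose by 2.21 ± 0.51 and 1.61 ± 0.34. They were the only calls among 255 measured nhr genes (0.784%, near the 0.858% of all genes). The Sp-type zinc finger gene sptf-1 rose by 2.00 ± 0.45. The calls of nhr-44, nhr-152, sptf-1 and ceh-13 each depended on the arrays used. Over the 6 fits that left out an array of 2 h or 3 h, the adjusted p ran from 0.0467 to 0.143 for nhr-44, from 0.0449 to 0.11 for nhr-152, from 0.00699 to 0.152 for sptf-1 and from 0.0567 to 0.155 for ceh-13.

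The regulators that fell were led by ceh-51, a homeobox gene of the NK-2 class that acts in MS descendants. It read 10.69, 11.64 and 11.81 at 2 h and 6.61, 5.67 and 6.07 at 3 h, and so fell by 5.26 ± 0.52 on the log2 scale, 38.4-fold (adjusted p = 4.67e-05). ceh-51 had climbed from 4.14 at 0 h to 9.20 at 1 h, and its 4 h mean was 4.82. mls-2, an HMX-type homeobox gene of mesoderm and neurons, read 6.71, 6.93 and 7.25 at 2 h and 4.16, 4.94 and 4.85 at 3 h, and fell by 2.31 ± 0.26 (adjusted p = 1.75e-04). A second mls-2 probe set fell by 2.56, and another, near background, differed by 0.08 and was not called. The forkhead gene fkh-2 read 6.04, 6.63 and 6.74 at 2 h and 4.53, 4.58 and 5.500 at 3 h, fell by 1.60 ± 0.38 (adjusted p = 0.0416), and was called higher again at 4 h, at 7.16.

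Outside the mesoderm list, the Zic-type zinc finger gene ref-2 read 6.95, 8.05 and 8.15 at 2 h and 3.43, 3.08 and 3.42 at 3 h. It fell by 4.41 ± 0.29 (21.2-fold, adjusted p = 1.51e-06) to the level it had held at 0 h, 3.13. The T-box gene tbx-43 followed the same course, with 7.24, 6.99 and 7.78 at 2 h and 3.33, 3.65 and 4.43 at 3 h, and fell by 3.53 ± 0.38 (adjusted p = 1.09e-04). For both genes the 2 h arrays stood above those of every other time. ztf-25, a zinc finger gene, differed from them in having been present at collection: it stood at 7.71 at 0 h, 8.79 at 1 h and 7.70 at 2 h before it fell by 3.62 ± 0.42 (adjusted p = 2.08e-04). aptf-2, an AP-2 gene absent from the regulator list and picked out after its values were seen, had the same pattern, with 7.13, 7.66 and 8.02 at 2 h, 3.76, 3.17 and 4.21 at 3 h and a difference of -3.89 ± 0.40 (adjusted p = 6.27e-05). The forkhead gene fkh-5 and the zinc finger gene lsy-27 fell, with differences of -2.80 ± 0.24 and -2.59 ± 0.35, from means of 10.01 and 10.62, and fell again in the fourth hour, to 5.12 and 5.46 (adjusted p = 5.06e-04 and 0.00172). ngn-1, the neurogenin gene of the proneural bHLH class, read 6.97, 6.69 and 6.47 at 2 h and 3.90, 4.51 and 4.27 at 3 h, fell by 2.49 ± 0.30 (adjusted p = 2.99e-04) and was called higher again at 4 h, at 5.78. Smaller falls were those of dpl-1, the DP partner of E2F factors (a difference of -1.91), the zinc finger gene tra-4 (-1.85), the AT-hook gene attf-4 (-1.38) and the FLYWCH gene flh-1 (-0.81). The adjusted p passed 0.05 in 4 of the 6 fits that left out an array for each of fkh-2, tra-4 and flh-1, and rose to at most 0.169, 0.147 and 0.184.

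**Figure D3:**
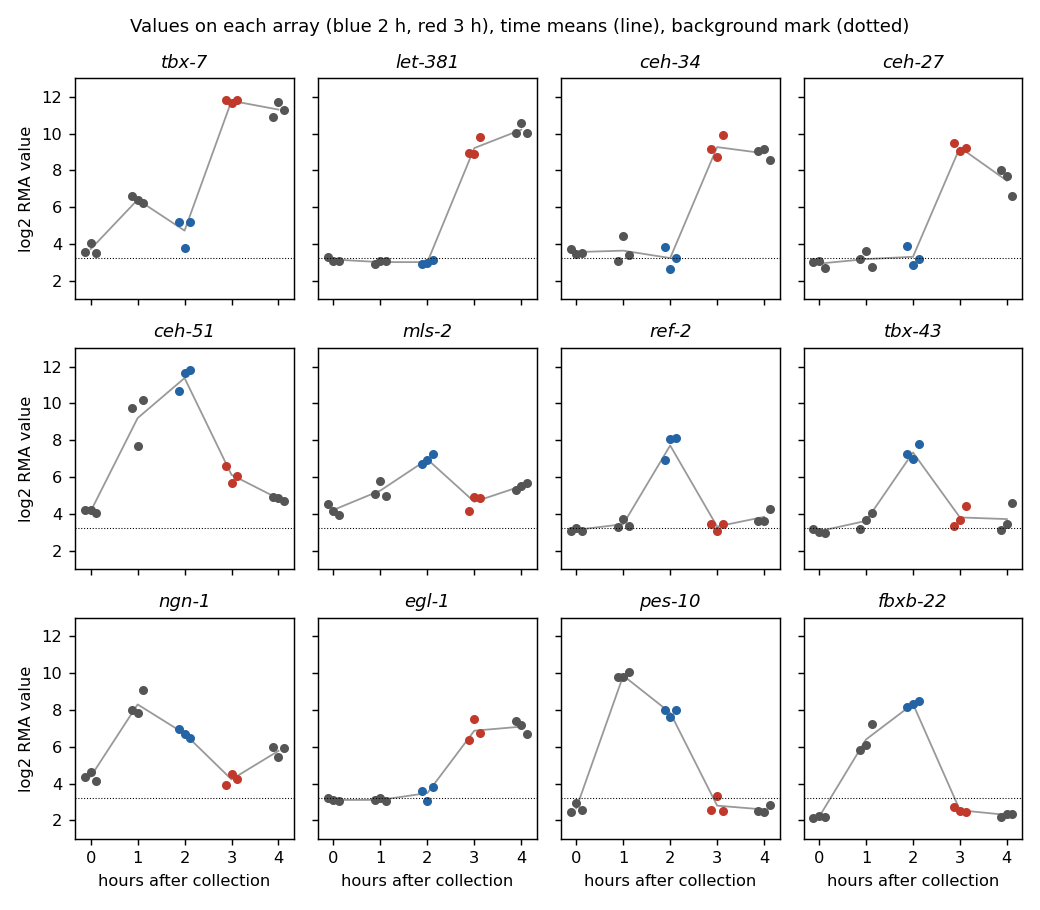
Log2 RMA value of 12 genes on each of the 15 arrays against hours after collection, with 2 h arrays in blue, 3 h arrays in red, other times in grey, time means joined and the background mark dotted. The first 4 genes and egl-1 rise between 2 h and 3 h, the other 7 fall, and ngn-1 and mls-2 turn upward in their means at 4 h, a change called for ngn-1 alone of these 2.

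Lists of other lineages held few calls. Among 19 endoderm genes none was called, and none reached an unadjusted p under 0.05 (limma). The endodermal GATA factor elt-2 read 3.98, 3.57 and 3.67 at 2 h and 3.67, 3.67 and 3.35 at 3 h, end-1 had means of 3.81 and 3.98, and the gut esterase gene ges-1 had 3.01 and 3.25. Of 11 C and D lineage regulators, ceh-13 was the only call (9.09%, against 0.858% of all genes called higher). Of 59 neuron regulators, ceh-37 and hlh-16 rose (3.39%, against 0.858% of all genes) and ngn-1 fell (1.69%, against 2.09%). At an unadjusted p under 0.05 from limma 9 of the 59 were higher (15.3%, against 5.06% of all genes) and 3 lower (5.08%, against 5.5%). hlh-14, a proneural factor, was already at 8.01 ± 0.85 at 2 h and read 9.05 ± 0.40 at 3 h (adjusted p = 0.309), and lin-32, the Atonal-type factor, stood at 4.64 ± 0.70 and 4.74 ± 0.11 before a call to 7.30 at 4 h. Among 32 epidermal genes, wrt-10, which encodes a hedgehog-related secreted protein, was the only call (3.12%, against 0.858% of all genes called higher). It read 5.54, 4.99 and 5.98 at 2 h and 7.91, 8.32 and 7.84 at 3 h, a rise of 2.52 ± 0.38 (adjusted p = 0.0018). The epidermal GATA gene elt-1 read 7.58, 6.75 and 6.12 and 6.21, 5.34 and 5.89, which overlapped, and lin-26 had means of 4.88 and 5.26.

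In the list of 21 Notch and AB lineage genes dsl-1 fell (4.76%, against 2.09% of all genes) and pen-2 rose (4.76%, against 0.858%). dsl-1 and dsl-2, adjacent in the WBcel235 gene order on chromosome IV, encode DSL-domain proteins of the kind that bind Notch receptors. dsl-1 read 11.31, 10.999 and 11.43 at 2 h and 7.80, 9.50 and 8.84 at 3 h, and fell by 2.53 ± 0.37 (adjusted p = 0.00154). dsl-2 read 11.48, 11.72 and 12.25 and 9.03, 8.46 and 8.96, and fell by 3.00 ± 0.30 (adjusted p = 6.26e-05). Both fell further in the fourth hour, to 5.41 and 5.91 (adjusted p = 3.95e-04 and 2.50e-04). dsl-3 went the other way, with 4.60, 3.81 and 3.49 at 2 h, 5.45, 5.61 and 7.24 at 3 h and a rise of 2.13 ± 0.50 (adjusted p = 0.0391), a call lost in 4 of the 6 fits that left out an array (highest adjusted p 0.171). dsl-2 and dsl-3 are not in the list and were added after their values were seen. pen-2, a gamma-secretase subunit gene, rose by 1.05 ± 0.16 (adjusted p = 0.00183). The Notch receptor gene lin-12 read 5.54, 6.00 and 6.34 at 2 h and 3.49, 4.14 and 4.12 at 3 h without overlap, with an adjusted p of 0.0546. No gene of the 28 in the Wnt and POP-1 list was called, while an unadjusted p under 0.05 from limma was reached by 2 that were higher and 1 that was lower.

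egl-1, the BH3-only gene whose product starts somatic programmed cell death, read 3.59, 3.07 and 3.80 at 2 h and 6.39, 7.49 and 6.74 at 3 h. It rose by 3.39 ± 0.27 (10.5-fold, adjusted p = 6.82e-06) and was the only called member of a list of 32 cell death and engulfment genes (3.12%, against 0.858% of all genes). The list leaves out ced-11, described below, which acts in dying cells and was also called higher, by 1.56. A second ced-11 probe set differed by 0.42 and was not called. mig-10, an adaptor of the actin cytoskeleton in cell and axon migration, read 4.41, 4.41 and 4.89 at 2 h and 7.80, 7.19 and 7.92 at 3 h, a rise of 3.06 ± 0.26 (adjusted p = 1.51e-05), while its 2 other probe sets stayed at background. The ephrin gene efn-4 and the guidance gene mig-13, picked out after their values were seen, both rose. efn-4 read 4.75, 3.96 and 4.78 at 2 h and 6.74, 6.86 and 6.50 at 3 h (adjusted p = 1.17e-04), and mig-13 rose by 1.64 ± 0.35 (adjusted p = 0.0245). The mig-13 adjusted p reached 0.112 when single arrays were left out. epi-1, a laminin alpha chain gene, was the only call among 24 basement membrane and matrix genes (4.17%, against 0.858% of all genes called higher). It had risen from 2.86 at 1 h to 7.14 at 2 h and reached 8.57 at 3 h, by 1.43 ± 0.34 (adjusted p = 0.0409, and up to 0.148 with an array left out).

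ins-2, an insulin-like peptide gene, was at background at 2 h (3.32, 3.01 and 3.06) and read 5.85, 8.78 and 8.09 at 3 h, the 3 h A array lying well below the others. It rose by 4.44 ± 0.53 (adjusted p = 2.93e-04). lact-5, a beta-lactamase-domain gene, read 2.89, 2.77 and 2.72 at 2 h and 7.23, 6.37 and 7.70 at 3 h, and rose by 4.31 ± 0.43 (adjusted p = 4.89e-05). ugt-11, a UDP-glucuronosyltransferase gene, read 2.92, 3.01 and 2.54 and then 7.46, 5.07 and 7.33, and rose by 3.80 ± 0.56 (adjusted p = 0.00176). Further rises among the 15 greatest were those of pmt-2, a phosphoethanolamine methyltransferase gene (2.97, not kept in 4 of the 6 fits that left out an array), the tetraspanin gene tsp-17 (2.82) and dhs-8, a short-chain dehydrogenase gene (2.76). Of the 147 rising genes 58 have only a sequence name. The greatest of these rises were T02E9.5, with 5.46, 5.40 and 5.06 at 2 h and 10.22, 9.80 and 10.13 at 3 h, F28B4.4 with 3.60, 3.26 and 3.73 and 6.95, 6.82 and 7.12, C33D9.13 with a difference of 3.08 ± 0.23, and F20C5.6 with 3.06 ± 0.40.

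Genes that were switched on, meaning called higher by at least 2-fold from a 2 h mean at or below the background mark to a 3 h mean above it, numbered 20 (0.117% of genes). let-381, zip-7 and nhr-44 were the regulators among them, beside ins-2, lact-5, ugt-11 and mig-13. ceh-34 and ceh-27 missed the definition narrowly, with 2 h means of 3.24 and 3.31. The count fell to 11 without array 2 h C. Since the 2 h values of these genes are background readings, their fold changes depend on where the background lies.

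The fbxb genes were the family with the most calls. F-box proteins are the substrate-binding parts of SCF ubiquitin ligases, which also hold a Skp1-type and a cullin subunit, and the F-box B genes form one of the great expanded F-box groups of this animal. Of 95 measured fbxb genes, 58 (61.1%) fell and 1 rose, against 2.09% and 0.858% of all genes. Their median difference was -1.81, against 0.04 for all genes. The median fbxb value was 7.23, 7.42 and 7.22 on the 2 h arrays and 4.55, 4.25 and 4.26 on the 3 h arrays. It had been 3.00 to 3.12 at 0 h and 4.86 to 5.36 at 1 h, and was 3.49 to 3.56 at 4 h. The family thus climbed for 2 h and lost most of that gain in the third. Of the 58 falling genes 46 had been called higher at 2 h than at 1 h, as had 59 of the 95 and 6.31% of all genes. That call shares the 2 h arrays with the fall. At 4 h 17 of the 58 were called lower again, against 0.799% of all genes. The falls of 49 of the 58 were called in each of the 6 fits that left out an array.

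fbxb-22 read 8.18, 8.30 and 8.52 at 2 h and 2.71, 2.49 and 2.45 at 3 h, a difference of -5.78 ± 0.27 on the log2 scale (adjusted p = 1.00e-07). Its 3 h values lay below the background mark, so the size of the fall depends on where the background lies. fbxb-96 read 10.93, 11.07 and 10.84 and then 6.04, 5.66 and 5.33, and fell by 5.27 ± 0.34 (adjusted p = 1.28e-06). fbxb-116 rose and fell within 2 h: it had a mean of 3.44 at 1 h, stood at 8.12 ± 0.16 at 2 h and read 3.90, 3.82 and 3.11 at 3 h, and fell by 4.51 ± 0.20 (adjusted p = 6.56e-08). fbxb-20, fbxb-67, fbxb-84, fbxb-95 and fbxb-83 fell, with differences of -4.61, -4.59, -4.43, -4.42 and -4.42. Across the 58 the difference ran from -5.78 to -0.51. The single riser was fbxb-77, with 5.11, 4.97 and 5.35 at 2 h and 7.85, 7.95 and 7.93 at 3 h, a rise of 2.77 ± 0.21 (adjusted p = 6.24e-06). The 36 members without a call differed by -1.76 to 0.72, and 6 of the 95 were at or below background at both times.

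Many fbxb genes lie next to one another. In the WBcel235 order of protein-coding genes, 33 of the 53 falling fbxb genes with a measured neighbour (62.3%) stood beside another falling gene, as in the runs fbxb-20, fbxb-16 and fbxb-15 or fbxb-62, fbxb-63 and fbxb-61. Among the falling genes outside the family the figure was 33 of 282 (11.7%), and over all measured genes 565 of 15677 (3.6%) stood beside a falling gene. Since 61.1% of the measured fbxb genes fell, a falling neighbour is likely wherever members adjoin. The share for fbxb genes that did not fall was not counted, so an effect of position beyond family membership was not tested. Near-identical members can share probes, so a single member's value is uncertain. Of the 12 members read by probe sets marked as shared within a gene family, 9 fell, and of the 83 others 49 fell.

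**Figure D4:**
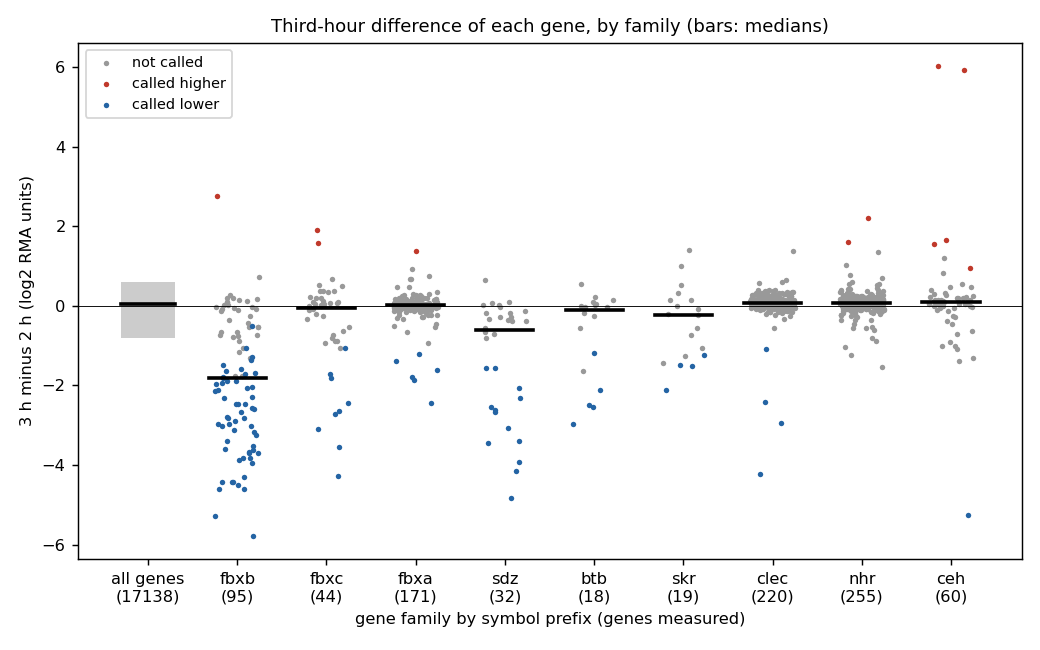
Difference between 3 h and 2 h (vertical axis, log2 RMA units) of each measured gene of 9 families, with calls in colour and medians as bars; for all 17138 genes the grey box runs from the 5th to the 95th percentile. The fbxb median lies at -1.81, outside the box, which ends at -0.81, while the medians of the other 8 families lie within it.

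Of 44 genes of the related fbxc group 9 fell (20.5%, against 2.09% of all genes) and 2 rose (4.55%, against 0.858%), with a median difference of -0.04. fbxc-22 read 5.43, 7.00 and 6.02 at 2 h and 2.70, 2.43 and 2.70 at 3 h, and fell by 3.54 ± 0.33 (adjusted p = 3.12e-05) to below background. fbxc-34 read 8.402, 8.67 and 8.24 and 10.51, 10.04 and 10.47, and rose by 1.90 ± 0.26 (adjusted p = 0.00109). Of 171 fbxa genes, 130 of them at background at both times, 6 fell (3.51%, against 2.09% of all genes). fbxa-153 alone rose (0.585%, against 0.858% of all genes), by 1.39 ± 0.24.

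Of 19 skr genes, which encode Skp1-related subunits of ubiquitin ligases, 4 fell (21.1%, against 2.09% of all genes) and 15 were not called. skr-2 read 9.05, 8.30 and 8.51 at 2 h and 7.16, 6.17 and 6.21 at 3 h, and fell by 2.11 ± 0.37 (adjusted p = 0.00644), while the related skr-1 read 9.22, 9.12 and 9.35 and 9.08, 9.07 and 8.87 and was not called. skr-8, skr-9 and skr-15, with 2 h means of 12.74, 12.68 and 12.32, fell, with differences of -1.23, -1.50 and -1.49. skr-8 and skr-9 are read by probe sets that share sequence, so they may not be separate readings, and their calls were lost in all 6 fits that left out an array (adjusted p 0.0522 to 0.127), as was that of skr-15 in 5. cul-1, the cullin of SCF ligases, read 5.95, 8.03 and 8.29 at 2 h and 4.77, 4.33 and 4.83 at 3 h, with 2 h A well below its group, and fell by 2.78 ± 0.61 (adjusted p = 0.0264, lost in 5 of the 6 fits). A second cul-1 probe set differed by -1.06 and was not called. ned-8, the ubiquitin-like modifier of cullins, read 8.95, 8.41 and 8.22 and 7.19, 6.97 and 7.36 and fell by 1.35 ± 0.20 (adjusted p = 0.00179). It was picked out after its values were seen. Of 18 btb genes, whose BTB domains are found in adaptors of CUL-3 ligases, 5 fell (27.8%, against 2.09% of all genes) and 13 were not called. btb-8 read 10.02, 10.14 and 10.27 at 2 h and 6.94, 7.56 and 7.05 at 3 h (a difference of -2.96 ± 0.28, adjusted p = 3.04e-05). The btb-6 call was lost in all 6 fits that left out an array (adjusted p 0.0736 to 0.16). cand-1, which encodes a cullin-binding regulator, read 3.94, 3.48 and 3.28 at 2 h and 4.54, 4.29 and 4.29 at 3 h and rose by 0.81 ± 0.19 (adjusted p = 0.0448, lost in 5 of the 6 fits). A second cand-1 probe set went the other way, by -0.18, and was not called. cand-1 was also picked out after its values were seen.

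Genes named for very early zygotic transcription were lower at 3 h in part. Of 41 measured, 17 fell (41.5%, against 2.09% of all genes) and none rose, with a median difference of -0.55. 12 of the 41 were at or below background at both times. Switched off, from above the background mark to it or below, were 2, against 0.251% of all genes. At 4 h 7 of the 17 were called lower again, against 0.799% of all genes. With each array of 2 h or 3 h left out, 13 to 15 members fell. The calls of sdz-28, sdz-1 and pes-5 were each lost in 5 of these 6 fits. pes-10, an early transcript of somatic blastomeres, read 9.77, 9.77 and 10.06 at 1 h, 7.98, 7.601 and 7.98 at 2 h and 2.58, 3.31 and 2.51 at 3 h. It fell by 5.05 ± 0.22 (33.2-fold, adjusted p = 6.56e-08), to about its mean at 0 h, 2.66. The 3 vet genes, named as very early transcripts, all fell. vet-1 read 9.25, 8.80 and 9.08 at 2 h and 3.63, 4.14 and 3.29 at 3 h (a difference of -5.36 ± 0.35, adjusted p = 1.64e-06), vet-6 fell by 4.68 ± 0.30 and vet-2 fell by 3.44 ± 0.34. Of 32 sdz genes, named for zygotic transcripts that depend on the maternal factor SKN-1, 13 fell (40.6%, against 2.09% of all genes) and none rose. However, 10 of these 13 are also among the 17 above. sdz-9 read 8.402, 8.81 and 8.46 at 2 h and 3.97, 3.76 and 3.46 at 3 h and fell by 4.83 ± 0.16 (adjusted p = 1.91e-08). sdz-29 fell by 4.16 ± 0.28 to 2.87, below background. tag-276, F10G2.4, F35G2.3, F57G9.3 and F56F4.8 fell as far, with differences of -5.43, -5.76, -5.03, -4.97 and -4.68. tag-276, F10G2.4 and F56F4.8 had been brightest at 1 h, with means of 11.46, 11.18 and 10.65.

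Maternal transcripts had fewer calls. Of 71 measured oocyte and early embryo genes 6 fell (8.45%, against 2.09% of all genes) and none rose, with a median difference of -0.15. sip-1, which encodes a small heat shock protein of oocytes and embryos, had a mean of 14.01 at 0 h, read 10.24, 11.07 and 11.56 at 2 h and 7.88, 7.24 and 6.93 at 3 h, and fell by 3.61 ± 0.52 (adjusted p = 0.00131). nos-2, a Nanos gene of the germ line, fell from 4.41 ± 0.04 to 2.52, below background, by 1.89 ± 0.17 (adjusted p = 2.63e-05), having stood at 9.74 at 0 h. gna-2, needed for the eggshell, fell by 1.85 ± 0.33 (adjusted p = 0.00695). Falls were also called for the B-type cyclin genes cyb-2.2 and cyb-2.1, which are read by probe sets that share sequence, with differences of -1.99 and -1.69, and for the microtubule gene rmd-1, with -3.13. With single arrays left out the adjusted p reached 0.0897, 0.126 and 0.138 for these 3. The maternal count was 3 without array 2 h B or 3 h B, and 11 without array 1 h B. Among 57 cell cycle genes 5 fell (8.77%, against 2.09%) and none rose: cul-1, cyb-2.1, cyb-2.2, dpl-1 and the phosphatase gene cdc-25.3, which read 6.403, 6.53 and 5.99 at 2 h and 4.44, 4.15 and 4.28 at 3 h (a difference of -2.02 ± 0.23, adjusted p = 1.74e-04). The cyclin kinase inhibitor gene cki-1 read 4.95, 4.44 and 5.16 and 4.97, 6.35 and 5.80 and was called only in the next hour, at 9.82 (adjusted p = 1.81e-05). Of 220 clec genes, of the C-type lectin class, 4 fell (1.82%, near the 2.09% of all genes), among them clec-88, which read 9.19, 9.71 and 9.82 at 2 h and 5.61, 4.99 and 5.46 at 3 h (a difference of -4.22 ± 0.48, adjusted p = 1.76e-04).

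Of the 359 falling genes 261 had been called higher in the first or second hour, and 156 came back to within 1 unit of their 0 h mean. Another reading of the same genes is that 64 had a 0 h mean at least 2 units above their 3 h mean. The shares of all genes that meet these definitions were not counted. In the second hour alone 169 of the 359 had been called higher, against 6.31% of all genes. That rise and the third-hour fall share the 2 h arrays, so high readings there favour both calls. 43 genes (0.251%) were switched off, meaning called lower by at least 2-fold from above the background mark to it or below. They included pes-10, nos-2, fbxb-22, fbxc-22 and sdz-29.

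The third hour was set against its neighbours by the difference between successive changes, which shares arrays with the comparison itself. The preceding hour called more genes, 1082 (6.31%) higher and 612 (3.57%) lower at 2 h than at 1 h, and the following hour fewer, 98 (0.572%) higher and 137 (0.799%) lower at 4 h than at 3 h. Over all genes the third-hour change differed from the second-hour change for 804 (4.69%) and from the fourth-hour change for 138 (0.805%), and over all probe sets for 950 (4.21%) and 164 (0.727%). Of the 147 rising genes 19 changed differently from both neighbouring hours, and of the 359 falling genes 68 did. These genes were selected on the third-hour change, which enters both tests and so favours passing them. The share of all genes that pass both was not counted. tbx-7 exceeded its second-hour change by 8.74 (adjusted p = 2.15e-06) and its fourth-hour change by 7.53 (adjusted p = 5.21e-05). let-381 exceeded them by 6.20 and 5.20 (adjusted p = 1.49e-06 and 5.21e-05), and ceh-34, ceh-27, zip-7, efl-3 and egl-1 also passed both tests. ceh-51 differed from its second-hour change by -7.44 (adjusted p = 2.97e-04) but was not shown to differ from its fourth-hour change (adjusted p = 0.0836). ref-2, tbx-43, mls-2, fbxb-22 and pes-10 passed both tests.

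Genes that were highest at 3 h, called higher in the third hour and lower in the fourth, numbered 13 (0.0759%). ceh-27, zip-7 and ugt-11 were among them, the last with a 4 h mean of 3.93 after 6.62 at 3 h. ttc-36 read 4.49, 2.80 and 3.55 at 2 h and 5.78, 5.09 and 6.49 at 3 h and fell back to 3.60. T02G6.3 rose from 6.11 ± 0.40 to 7.61 ± 0.08 and returned to 6.13. ced-11, a TRPM-type channel gene that acts in dying cells, rose from 7.34 ± 0.24 to 8.90 ± 0.49 and returned to 7.45. This count was 5 to 8 without any one of the arrays 2 h B, 2 h C, 3 h A and 3 h C. Genes highest at 2 h, called higher in the second hour and lower in the third, numbered 169 (0.986%), among them 46 fbxb genes, ref-2 and tbx-43. Y43B11AL.1 was a sharp case, with 2.72, 3.15 and 3.07 at 1 h, 7.26, 8.05 and 7.53 at 2 h and 3.49, 3.21 and 3.72 at 3 h. fbxb-107 and fbxb-106, neighbours on chromosome II, had 1 h means of 4.33 and 6.00, 2 h means of 8.35 and 9.46, and 3 h means of 4.82 and 5.15.

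Structural and housekeeping groups had few calls. None of 40 muscle structure genes, 33 junction and adhesion genes, 31 cilium genes, 37 chromatin regulators and 16 linker histone and HMG genes was called by limma. At an unadjusted p under 0.05, which 10.6% of all genes passed, the muscle list held 4 genes (10%), the junction list 0, the cilium list 1 (3.23%) and the chromatin list 5 (13.5%). The linker histone and HMG list held 5 (31.2%), 2 higher and 3 lower. The muscle myosin gene myo-3 had means of 2.25 and 2.27 and the pharyngeal myosin gene myo-2 2.93 and 3.62 (adjusted p = 0.0524), at or near background. Of 29 heat shock and chaperone genes, sip-1 was the only call (3.45%, against 2.09% of all genes called lower).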

How the data were processed

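Labelled RNA from 15 embryo samples was hybridised to 1-colour Affymetrix C. elegans arrays, per the labels' protocols. The authors deposited RMA log2 values, 1 for each of 22625 probe sets on each array (the method is from the submitters' processing notes, which give no version). Scanner files and detection calls were not used. Values ran from 1.77 to 14.2, and RMA compresses low ones, so folds near background are uncertain.

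The title of an array set its time. Tests left out 77 control probe sets of the array maker. The platform annotation gave 1 gene symbol for 20810 of the 22548 tested, several for 843 and none for 895, and 20745 symbols were updated to the WBcel235 gene table. The brightest probe set by mean over 15 arrays stood for a gene, which gave 17138 genes. The annotation names no build, so no coordinates are given. Promoter, transcript and protein sequences were not used here, and the planned promoter motif counts were not made.

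One mean per time was fitted in R 4.3.3 by lmFit and eBayes of limma 3.58.1, with p adjusted over all probe sets. The median SE of the difference was 0.19 and its 90th percentile 0.44, and 3 arrays a group limit the precision. The other 9 arrays enter through the shared spread. In data simulated for this comparison with 22548 probe sets, sets of 50 given changes of 1, 2, 3 and 4 units were recovered at 62%, 84%, 98% and 100%, and 7 false calls were made. The simulated noise was drawn independently for each value, without array-wide differences and without changes at other times. These rates may therefore not carry over to the real arrays. No set test was run, and lists are described by counts and medians. Tables and figures were made with Python 3.11.15 and matplotlib 3.10.9.

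Named were the 15 largest rises and falls among called genes with a gene-class name and the 4 largest of each with a sequence name, called list members, 6 genes highest at each of 2 h and 3 h, the injected genes, members of families with at least 4 calls in a direction, and list members given as not called. Symbols sharing a prefix and at least 8 measured genes formed a family, 233 in all. The members and lists were chosen with earlier results of these data known, so their counts are not independent evidence. Alternatives covered the arrays in the fit, their scaling and grouping, the variance model, the background mark, dim probe sets and the probe set of a gene.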

Additional observations from a re-analysis of the deposited data

Results flagged for a closer look

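The third-hour change differed from the second-hour change, by a test of the difference itself in limma, for 950 probe sets (4.21%), of which 246 changed upward relative to it and 704 downward. It differed from the fourth-hour change for 164 probe sets (0.727%), 41 upward and 123 downward. Both tests reuse arrays of the comparison.

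A further 32 probe sets that carry several gene symbols or none, and so entered no count of genes, were called between the times, 11 higher and 21 lower.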

How the results depend on the processing

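With arrays 1 h B and 1 h C placed by their tags, 1 probe set was higher and 7 lower, 0 genes were switched on and 1 off, 0 were highest at 3 h and 0 at 2 h, 0 regulators rose and 0 fell, and 6 and 17 probe sets changed differently from the second and the fourth hours, 1 h A then being a lone array taken to vary like the others. Centred on ribosomal protein genes, arrays gave 297 higher probe sets, 101 genes highest at 2 h and 17556 probe sets that differed from the second hour. Centred on the hybridisation controls, they gave 20 higher and 233 lower probe sets, 0 genes highest at 3 h and 87 at 2 h, 6 regulators up and 8 down, and 323 and 26 probe sets that differed from the second and the fourth hours. F47H4.2 alone among called genes then changed sign, to -0.13. An intensity trend with robust eBayes gave 8 genes highest at 3 h. A background mark 1 unit higher gave 39 genes switched on and 113 off. Of these causes, those other than the construction of each setting were not tested.

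Leaving out each array of 2 h or 3 h gave 112 to 153 higher and 320 to 450 lower probe sets, 11 to 21 genes switched on and 30 to 47 off, 5 to 11 highest at 3 h and 123 to 196 at 2 h, 11 to 14 regulators up and 10 to 16 down, and 521 to 874 and 105 to 182 probe sets that differed from the second and the fourth hours. Of the 506 called genes, 355 to 405 kept their call in each such fit, 385 did with the 6 arrays alone, and 7 did under the tags. The replicate block gave 184 higher and 407 lower probe sets, of which 168 and 387 were shared with the unblocked fit. Same-letter arrays correlated at -0.04, -0.28 and 0.17 in their deviations from the time means, and 3 h B correlated best with 2 h A (0.36). Such deviations cancel within each time by construction, so they cannot decide whether the letters pair the samples. The labels do not state a pairing. The other alternatives kept these counts within 1.5 times. Levels near the 3.22 background mark, which 7225 genes did not pass at either time, limit what can be seen.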
